A study of Mus musculus with 8 samples.

Results

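Vascular endothelial and pericyte genes, a panel of 40 genes chosen by name as markers of blood vessels, were followed in RNA of the mouse LGE (lateral ganglionic eminence), a region of the embryonic ventral forebrain that forms the striatum. Of the 40 named genes, 36 were among the 12843 genes of the deposited table, and the other 4 (Abcb1a, Kcne4, Vwf and Ly6c1) were not analysed here. The tissue was taken at E12.5, an embryonic day. The 4 null-labelled libraries carried the alleles Gsx2EGFP and Gsx2RA, together read as null for Gsx2, a homeobox factor of LGE progenitors, and the 4 wild-type libraries were labelled wild type with no altered allele named. Embryos of both groups came from matings between carriers of the 2 alleles and were typed from tail tissue, and the labels name no sorting of cells from the dissected LGE. The labels do not say whether 1 embryo or several went into a library, and p-values therefore measure only the spread between these samples, which may be technical.

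Blood vessels grow into the embryonic brain from a plexus around the neural tube. Endothelial cells line them and respond to vascular endothelial growth factor (VEGF) made by neural cells, to angiopoietins and to Wnt7 ligands, which also start the blood-brain barrier. Pericytes are mural cells on the outer wall of capillaries, drawn there by platelet-derived growth factor B from the endothelium. Gsx2 is known as a gene of neural progenitors.

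In the null-labelled libraries, 5 endothelial genes stood lower with every library left out in turn: Cdh5, the junction cadherin of endothelium; Kdr, the main VEGF receptor; Tek and Tie1, the Tie receptors; and Egfl7, a secreted matrix factor of endothelial cells. Cd34, a surface protein of vessels and blood progenitors, and Pdgfrb, the receptor of pericytes, also passed the threshold, but not with some single libraries left out. Without both null-labelled libraries 5 and 6, which held most of the lowest values, only Cdh5, Tie1 and Egfl7 passed. No vascular gene of the panel passed the threshold upward. Over all tested genes 14.6% passed lower and 13.8% higher with all 8 libraries, and 9.08% passed lower without libraries 5 and 6. How many of all genes kept their calls with every library left out was not counted, so this is not known to be particular to the panel. Angpt1, the ligand of the Tek receptor, was also lower, while the Wnt ligands Wnt7a and Wnt7b moved in opposite directions. Fzd4, a Wnt receptor of barrier endothelium, was lower too. Its call is given as a description, because only its wild-type mean passed the filter on low values.

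Levels are in RPKM, that is, reads scaled to the length of the gene and the size of the library. A log2 fold change is the null-labelled mean minus the wild-type mean of log2(RPKM + 1), and for genes of low RPKM it understates the change. Differences were tested with limma, two-sided, with p-values adjusted (Benjamini-Hochberg) over the 11395 genes with a mean of at least 1 RPKM in either genotype, at a threshold of 0.05. The libraries go by numbers that the column names carry and no label explains: null-labelled libraries 5, 6, 11 and 12, and wild-type libraries 1, 2, 7 and 8. Library totals were 16031413 to 18019168 reads in listed genes. Gsx2 RNA itself was higher in the null-labelled libraries, with 50.04, 49.1, 57.6 and 64.2 RPKM, against 22.1, 21.4, 26.0 and 24.6 RPKM in the wild-type libraries. What the 2 alleles keep of the gene is unknown from the labels, so this RNA does not check them, and each direction is that of libraries as labelled.

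Null-labelled libraries 5 and 6 stood apart within the panel. Library 5 held the lowest value of all 8 libraries for 22 of the 36 listed genes and library 6 for 7. The count was 1 for library 11, 3 for library 12 and at most 1 for any wild-type library. The same count over all listed genes was not made, so it is not known to be particular to the panel. Library 5 also had the lowest summed RPKM of vascular basement membrane genes (131) and of Wnt genes (409). For mural genes outside the panel library 11 had the lowest sum (47.7). The median deviation of the tested genes from their own means over 8 libraries, on the log2 scale, was -0.23 in library 5, -0.13 in library 6, 0.029 in library 11 and 0.015 in library 12, and in wild-type libraries 1, 2, 7 and 8 it was 0.13, -0.017, 0.071 and 0.13. The low values of the null-labelled group were thus mainly those of libraries 5 and 6, while libraries 11 and 12 lay close to the genes' means. In bulk tissue, fewer vascular cells and less RNA per vascular cell cannot be told apart.

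**Figure D1:**
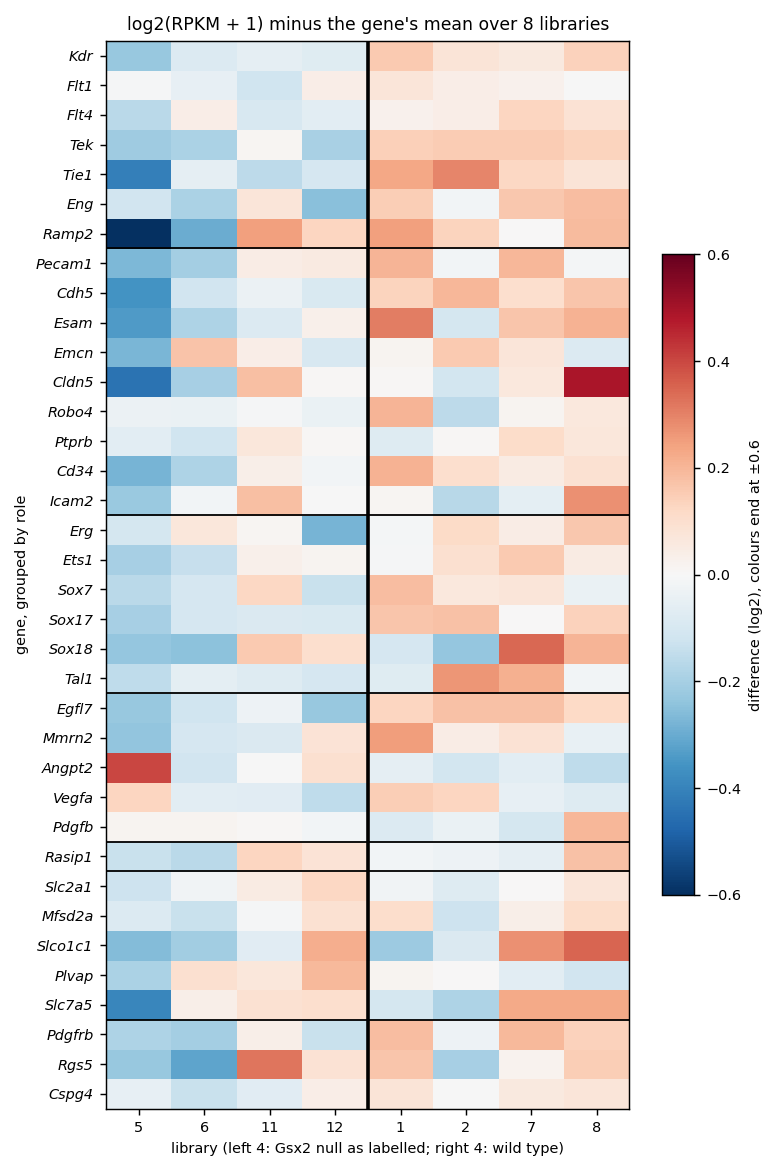
Deviation of each of the 36 listed vascular genes from its mean over the 8 libraries, as log2(RPKM + 1), with genes as rows grouped by role and libraries as columns, null-labelled at the left and wild type at the right. Blue is below the gene's mean and red above it; library 5 is the bluest column, with a median deviation of -0.23 over the tested genes.

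The promoters of 6 of these genes are shown because endothelial promoters are known for binding sites of ETS factors, and because the genes differ in how they stood in the null-labelled libraries: Kdr, Tie1, Egfl7, Cd34 and Tek passed the threshold and Cldn5, a tight-junction gene, did not. The RefSeq promoter table (GRCm38.p6) matched 20 of the 36 listed genes, with 26 start sites. Each sequence is the 250 bases before the start, 5′ to 3′ on the gene's strand. Capitals mark the ETS core GGAAG or its reverse complement CTTCC. Positions are chr5:75978456-75978705 (minus strand) for Kdr, chr4:118489850-118490099 (minus strand) for Tie1, chr2:26580833-26581082 (plus strand) for the most upstream of the 3 Egfl7 starts in the table, chr1:194938571-194938820 (plus strand) for Cd34, chr4:94739039-94739288 (plus strand) for Tek and chr16:18776597-18776846 (plus strand) for Cldn5.
Kdr: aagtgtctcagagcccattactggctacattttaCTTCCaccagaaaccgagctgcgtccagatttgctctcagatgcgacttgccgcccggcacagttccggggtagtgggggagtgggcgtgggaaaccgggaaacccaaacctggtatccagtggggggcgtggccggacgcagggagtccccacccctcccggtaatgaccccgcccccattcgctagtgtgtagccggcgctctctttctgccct
Tie1: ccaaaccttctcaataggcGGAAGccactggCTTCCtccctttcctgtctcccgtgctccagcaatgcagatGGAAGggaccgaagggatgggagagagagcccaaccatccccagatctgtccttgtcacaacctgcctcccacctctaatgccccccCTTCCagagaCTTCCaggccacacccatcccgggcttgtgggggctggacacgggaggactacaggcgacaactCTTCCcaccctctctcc
Egfl7: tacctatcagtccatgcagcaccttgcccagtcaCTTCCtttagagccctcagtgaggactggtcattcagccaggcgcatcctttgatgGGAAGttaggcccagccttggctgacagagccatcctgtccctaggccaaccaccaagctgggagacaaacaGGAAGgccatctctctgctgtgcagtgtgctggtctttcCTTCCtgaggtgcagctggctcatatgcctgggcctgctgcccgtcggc
Cd34: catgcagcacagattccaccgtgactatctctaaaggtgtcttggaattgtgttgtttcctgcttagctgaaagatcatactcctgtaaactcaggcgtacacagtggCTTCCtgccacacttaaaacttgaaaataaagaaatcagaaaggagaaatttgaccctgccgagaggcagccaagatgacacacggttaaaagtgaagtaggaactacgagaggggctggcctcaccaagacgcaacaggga
Tek: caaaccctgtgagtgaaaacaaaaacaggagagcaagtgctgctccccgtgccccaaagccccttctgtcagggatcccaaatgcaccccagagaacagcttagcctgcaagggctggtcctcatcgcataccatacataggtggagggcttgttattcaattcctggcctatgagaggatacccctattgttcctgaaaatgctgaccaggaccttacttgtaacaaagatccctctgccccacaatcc
Cldn5: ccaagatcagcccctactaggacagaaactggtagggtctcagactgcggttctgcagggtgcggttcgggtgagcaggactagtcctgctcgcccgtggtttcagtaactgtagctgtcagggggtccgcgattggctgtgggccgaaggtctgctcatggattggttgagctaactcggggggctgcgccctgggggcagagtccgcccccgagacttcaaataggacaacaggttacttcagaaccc

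The ETS core occurred 6 times in the Tie1 window and 4 times in the Egfl7 window shown. It occurred 1 time each in the windows of Kdr and Cd34, and 0 times in those of Tek and Cldn5. In the Egfl7 windows not shown it occurred 2 times and 0 times. Over both strands it was in 65.4% of the 26 vascular windows and in 64.1% of all 32851 promoter windows of the same length. The SOX core ACAAT was in 26.9% of vascular windows against 27.7% of all, the hypoxia response core ACGTG in 11.5% against 16.6%, the TCF/LEF core CTTTG in 50% against 48.6%, and the GATA core GATAA in 19.2% against 22.6%. None of these short motifs overlapped another in the 6 windows shown. A match is a run of letters and not a measured site, and these shares were not tested.

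Of the 36 listed genes, 27 passed the filter on low values and were tested. Among these 7 were lower and 0 higher in the null-labelled libraries, that is 25.9% lower, where 14.6% of all tested genes were lower and 13.8% higher. The median log2 fold change of the 27 was -0.16, against -0.014 over all tested genes, and 24 of the 27 were negative, against 53.2% of all tested genes. Slco1c1 passed the filter through its wild-type mean alone, so these figures describe the tested genes and not the panel. Over all 36 listed genes the mean RPKM was lower in the null-labelled libraries for 32 (88.9%), against 51.8% of all listed genes. All 4 null-labelled libraries lay below all 4 wild-type libraries for 7 of the 36, where 15.2% of all listed genes did so, and above them for 0, where 13.9% did. Of the 36, 8 had in the authors' deposited table an FDR under 0.05 with a lower level (the 7 that passed with limma, and Sox17) and 0 with a higher one, where 12.8% of all listed genes were lower and 14.7% higher.

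Because libraries 5 and 6 stood apart, the fit was repeated without them, an alternative added after the data were seen, with null-labelled libraries 11 and 12 set against the 4 wild-type libraries. Then 3 of 28 tested vascular genes were lower and 0 higher, where 9.08% of all tested genes were lower, and 18 of the 28 log2 fold changes were negative. The share of negative changes over all tested genes was not counted for this fit. The median of the 28 was -0.053, against 0.023 over all tested genes. Icam2, at 1.17 RPKM in library 11 and 0.910 RPKM in library 12, passed the filter here through its null-labelled mean alone. Its wild-type mean was 0.942 RPKM, so these figures describe the tested genes and not the panel. The 3 genes were Tie1 (-0.31, limma adjusted p = 0.0321), Egfl7 (-0.28, limma adjusted p = 0.0362) and Cdh5 (-0.22, limma adjusted p = 0.0421). Kdr (-0.17, limma adjusted p = 0.0790) and Tek (-0.23, limma adjusted p = 0.116) kept their sign and did not pass with 2 null-labelled libraries, and Cd34 gave -0.10 and Pdgfrb -0.17. Without library 5 alone or library 6 alone 5 genes were called lower, where 11% and 11.6% of all tested genes were. The count was also 5 without wild-type library 1, 7 or 8 alone, where 11.5%, 10.8% and 12.7% of all tested genes were lower.

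**Figure D2:**
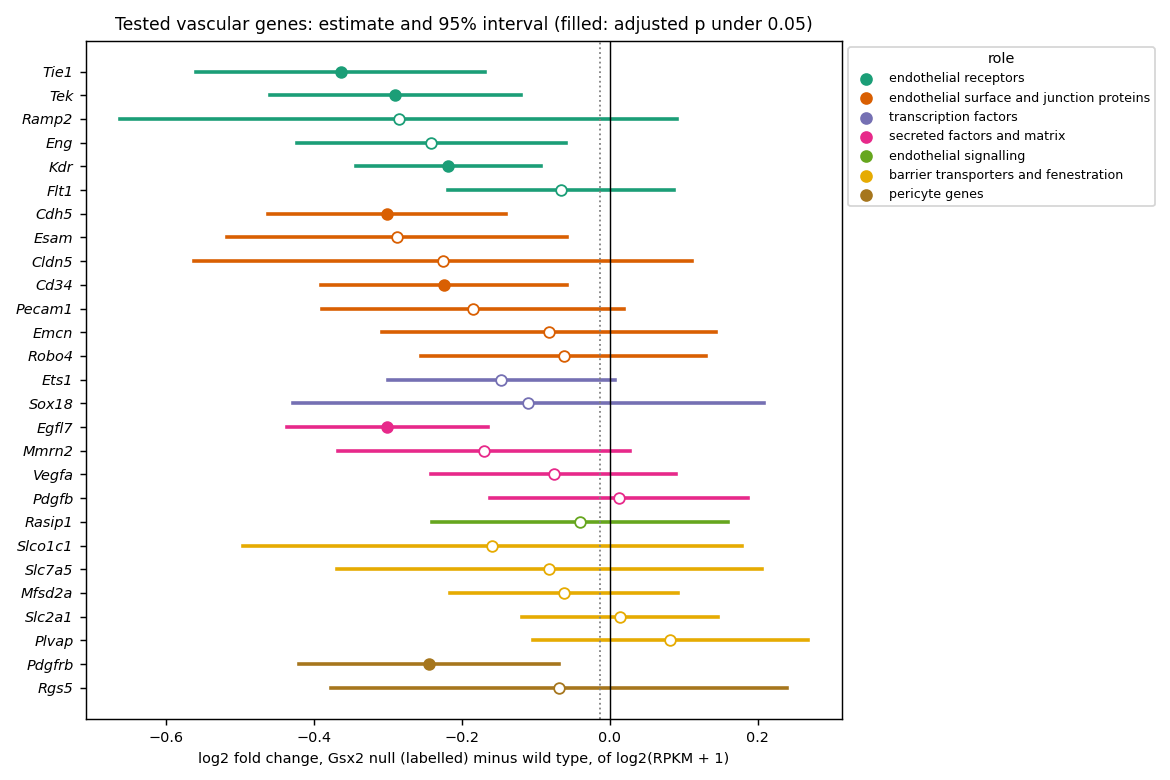
Log2 fold change, null-labelled minus wild type, of log2(RPKM + 1) for the 27 tested vascular genes, coloured by role, with 95% intervals from limma (n = 4 libraries a genotype). Filled points passed an adjusted p of 0.05; the dotted line is the median of all tested genes, -0.014, and 24 of the 27 points lie below 0.

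The receptors of endothelial growth signals held 3 of the 7 calls. The summed RPKM of the 7 receptor genes (Kdr, Flt1, Flt4, Tek, Tie1, Eng and Ramp2) was 17.3 to 23.7 in the null-labelled libraries and 24.8 to 26.9 in the wild-type libraries, so the sums of the groups did not overlap. The sums of the other roles with more than 1 gene overlapped. Surface and junction proteins summed to 26.2 to 35.7 RPKM in null-labelled and 34.7 to 39.8 RPKM in wild-type libraries, and transcription factors to 7.88 to 10.3 RPKM in null-labelled and 9.84 to 11.8 RPKM in wild-type libraries. Secreted factors summed to 22.6 to 25.6 RPKM in null-labelled and 24.5 to 27.4 RPKM in wild-type libraries, barrier genes to 52.2 to 66.7 RPKM in null-labelled and 56.0 to 67.0 RPKM in wild-type libraries, and pericyte genes to 6.14 to 9.30 RPKM in null-labelled and 7.07 to 9.15 RPKM in wild-type libraries. Tie1, an endothelial receptor that modulates Tek (ENSMUSG00000033191.14, chr4:118471191-118490061 in GRCm38), had 2.38, 3.33, 3.03 and 3.19 RPKM in null-labelled libraries 5, 6, 11 and 12, against 4.28, 4.50, 3.90 and 3.75 RPKM in wild-type libraries 1, 2, 7 and 8. Library 5 was the lowest, and every null-labelled library lay under every wild-type one. The means were 2.98 ± 0.421 RPKM in null-labelled and 4.11 ± 0.345 RPKM in wild-type libraries (SD, n = 4 each), and the log2 fold change was -0.36 ± 0.09 (SE, limma adjusted p = 0.0116).

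Tek, the receptor of the angiopoietins (ENSMUSG00000006386.15, chr4:94739289-94874976), had 0.937, 0.967, 1.26 and 0.962 RPKM in the null-labelled libraries, against 1.47, 1.49, 1.50 and 1.46 RPKM in the wild-type libraries. The wild-type values were close together, and null-labelled library 11 stood above the other null-labelled ones without reaching them. Mean levels were 1.03 ± 0.154 RPKM in null-labelled and 1.48 ± 0.0178 RPKM in wild-type libraries (SD, n = 4 each). The log2 fold change was -0.29 ± 0.08 (SE, limma adjusted p = 0.0174). These values rested on 97 to 164 reads a library.

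Kdr, the receptor through which VEGF drives endothelial growth (ENSMUSG00000062960.10, chr5:75932827-75978458), had 4.86, 5.48, 5.61 and 5.52 RPKM in the null-labelled libraries, against 6.64, 6.25, 6.15 and 6.55 RPKM in the wild-type libraries. The groups did not overlap, with library 5 lowest. Kdr averaged 5.37 ± 0.343 RPKM in null-labelled and 6.40 ± 0.237 RPKM in wild-type libraries (SD, n = 4 each), and its log2 fold change was -0.22 ± 0.06 (SE, limma adjusted p = 0.0157). Gsx2 is on chromosome 5 too, and an effect of its altered alleles on nearby genes was not tested. Flt1, the decoy VEGF receptor, had 1.22 to 1.49 RPKM in null-labelled and 1.41 to 1.54 RPKM in wild-type libraries, and its log2 fold change of -0.066 (95% interval -0.22 to 0.087) did not pass. Flt4, the receptor of VEGF-C, was under the filter, at 0.669 to 0.919 RPKM in null-labelled and 0.897 to 1.04 RPKM in wild-type libraries.

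Eng (endoglin), a co-receptor of TGF-beta signals in endothelium, had 3.08, 2.86, 3.63 and 2.70 RPKM in the null-labelled libraries, against 3.89, 3.36, 3.94 and 4.02 RPKM in the wild-type libraries. Library 11 lay above wild-type library 2, and the log2 fold change of -0.24 ± 0.08 (SE) missed the threshold (limma adjusted p = 0.0503). It passed without library 11 or without library 2, with a lowest adjusted p of 0.0167. Ramp2, the partner of the adrenomedullin receptor, had 3.96, 5.32, 8.22 and 7.49 RPKM in the null-labelled libraries, against 8.20, 7.52, 6.79 and 7.85 RPKM in the wild-type libraries. Libraries 5 and 6 were low and library 11 was the highest of all 8, and the log2 fold change of -0.28 had a 95% interval from -0.66 to 0.091. Exons of Ramp2 overlap Vps25 on the same strand over 1103 bases, so its reads may be shared.

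**Figure D3:**
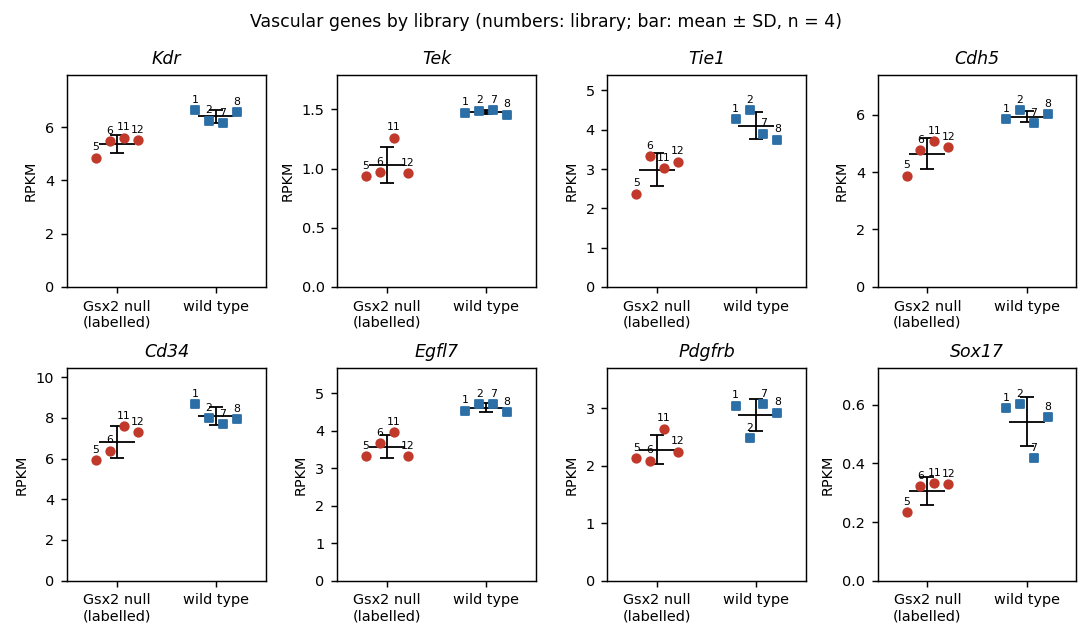
RPKM by library of 8 vascular genes, each in its own panel from 0, with null-labelled libraries (red circles) left of wild-type libraries (blue squares), the library number above each point, and bars for the mean ± SD (n = 4). In every panel except that of Pdgfrb the 4 null-labelled points lie under the 4 wild-type points.

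Among the surface and junction proteins Cdh5 and Cd34 were called. Cdh5, the adherens-junction protein VE-cadherin (ENSMUSG00000031871.9, chr8:104101625-104144511), had 3.87, 4.76, 5.09 and 4.86 RPKM in the null-labelled libraries, against 5.85, 6.16, 5.70 and 6.01 RPKM in the wild-type libraries. Library 5 was the lowest and the groups did not overlap. The means were 4.64 ± 0.531 RPKM in null-labelled and 5.93 ± 0.199 RPKM in wild-type libraries (SD, n = 4 each), and the log2 fold change was -0.30 ± 0.07 (SE, limma adjusted p = 0.0115).

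Cd34 (ENSMUSG00000016494.9, chr1:194938819-194961279) had 5.91, 6.39, 7.59 and 7.30 RPKM in the null-labelled libraries, against 8.69, 7.99, 7.67 and 7.94 RPKM in the wild-type libraries. The groups did not overlap, but null-labelled library 11 and wild-type library 7 were next to each other. Cd34 averaged 6.79 ± 0.781 RPKM in null-labelled and 8.07 ± 0.434 RPKM in wild-type libraries (SD, n = 4 each), with a log2 fold change of -0.22 ± 0.07 (SE, limma adjusted p = 0.0479). The call was lost without any 1 of libraries 5, 6, 1, 2, 7 or 8, with adjusted p of 0.0629 to 0.114. An exon of Gm16897 lies on the opposite strand of Cd34 over 148 bases, and a strand setting for the counting is not stated.

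Pecam1 (CD31), the surface protein most used to stain vessels, had 4.70, 4.97, 6.09 and 6.14 RPKM in the null-labelled libraries, against 6.90, 5.78, 6.88 and 5.81 RPKM in the wild-type libraries. Libraries 5 and 6 lay below all others, whereas 11 and 12 lay between the wild-type values, and the log2 fold change of -0.18 had a 95% interval from -0.39 to 0.019 (limma adjusted p = 0.166). Cldn5, the main tight-junction protein of brain endothelium, ranged from 4.65 to 7.71 RPKM in null-labelled and from 6.12 to 9.77 RPKM in wild-type libraries (log2 fold change -0.23, 95% interval -0.56 to 0.11). Esam, an endothelial adhesion molecule, had 3.02 to 4.20 RPKM in null-labelled and 3.73 to 5.30 RPKM in wild-type libraries (-0.29, limma adjusted p = 0.0627), and it passed without library 12 or without library 2, with a lowest adjusted p of 0.0184. Emcn (endomucin, -0.082) and Robo4 (-0.062), 2 more endothelial surface proteins, had groups that overlapped and did not pass. Icam2 (18 to 36 reads a library) and Ptprb were under the filter, with overlapping groups.

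Egfl7 was the secreted factor that passed. Egfl7 (ENSMUSG00000026921.18, chr2:26580014-26593120), which endothelial cells lay down around the growing vessel and whose gene carries the microRNA Mir126a, had 3.32, 3.66, 3.96 and 3.33 RPKM in the null-labelled libraries, against 4.54, 4.72, 4.72 and 4.50 RPKM in the wild-type libraries. The highest null-labelled value, in library 11, was below the lowest wild-type value, in library 8. The means were 3.57 ± 0.307 RPKM in null-labelled and 4.62 ± 0.119 RPKM in wild-type libraries (SD, n = 4 each), and the log2 fold change was -0.30 ± 0.06 (SE, limma adjusted p = 0.00502), the smallest p of the panel. Exons of Egfl7 overlap Gm20532 on the same strand over 264 bases and Agpat2 on the opposite strand over 64 bases.

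The other secreted factors did not pass. Vegfa, the VEGF ligand made mostly by neural cells, had 17.1, 14.9, 14.8 and 13.9 RPKM in the null-labelled libraries, against 17.4, 17.1, 15.0 and 14.7 RPKM in the wild-type libraries. The groups overlapped, and the log2 fold change was -0.076 with a 95% interval from -0.24 to 0.090. Library 5, the lowest for most vascular genes, was the highest null-labelled library for Vegfa. Pdgfb, the endothelial signal to pericytes, was nearly even between the groups, at 2.12 to 2.20 RPKM in null-labelled and 1.94 to 2.63 RPKM in wild-type libraries (log2 fold change 0.012, 95% interval -0.16 to 0.19). Mmrn2, an endothelial matrix protein, had 1.84 to 2.54 RPKM in null-labelled and 2.24 to 2.98 RPKM in wild-type libraries (-0.17, 95% interval -0.37 to 0.028). Angpt2, the angiopoietin of sprouting vessels, was under the filter, with 1.16 RPKM (91 reads) in library 5 and 0.511 to 0.747 RPKM in the other null-labelled libraries, against 0.471 to 0.576 RPKM in wild-type libraries, so library 5 was its highest library.

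Among the endothelial transcription factors only Sox17 had groups that did not overlap, and it was under the filter and was not tested in the main fit. Sox17, a SOX factor of arterial endothelium (ENSMUSG00000025902.13, chr1:4490931-4497354), had 0.233, 0.322, 0.333 and 0.330 RPKM in the null-labelled libraries, against 0.590, 0.603, 0.419 and 0.557 RPKM in the wild-type libraries. These values stood for 21, 29, 32 and 29 reads in the null-labelled libraries and for 53, 55, 40 and 49 reads in the wild-type libraries. The groups did not overlap. In the authors' deposited table its log2 fold change was -0.82 with an FDR of 0.00160. Its exons overlap Gm37587 on the opposite strand over 804 bases, so at this depth and without a stated strand setting the reads may be shared.

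The remaining transcription factors did not separate the groups. Ets1, an ETS factor of endothelial and other cells, had 3.70 to 4.50 RPKM in null-labelled and 4.37 to 5.01 RPKM in wild-type libraries (log2 fold change -0.15, 95% interval -0.30 to 0.0069). Sox18 had 1.97 to 2.93 RPKM in null-labelled and 2.00 to 3.47 RPKM in wild-type libraries (-0.11, 95% interval -0.43 to 0.21). Erg, the ETS factor most particular to endothelium, was under the filter at 0.552 to 0.971 RPKM in null-labelled and 0.868 to 1.10 RPKM in wild-type libraries. Sox7, an endothelial SOX factor, and Tal1, a factor of blood and endothelial progenitors, were also under it, with overlapping groups.

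None of the 5 tested genes of barrier transport and fenestration passed, where 14.6% of all tested genes were lower and 13.8% higher, so 0 of 5 says little about these genes as a group. Slc2a1 (GLUT1), the glucose transporter of brain endothelium that neural cells also express, had 25.1, 27.0, 28.5 and 30.0 RPKM in the null-labelled libraries, against 27.0, 25.9, 27.5 and 28.9 RPKM in the wild-type libraries. The log2 fold change was 0.013 with a 95% interval from -0.12 to 0.15. Slc7a5 (LAT1), a transporter of large amino acids, had 15.1, 20.6, 21.5 and 21.6 RPKM in the null-labelled libraries, against 18.6, 17.6, 23.7 and 23.7 RPKM in the wild-type libraries (-0.082, 95% interval -0.37 to 0.21). In both genotypes Slc7a5 was lowest in libraries of the lower numbers. Mfsd2a, the lipid transporter that restrains transcytosis at the barrier, had 7.93 to 9.44 RPKM in null-labelled and 7.98 to 9.56 RPKM in wild-type libraries (-0.062, 95% interval -0.22 to 0.092). Slco1c1, a thyroid hormone transporter, gave -0.16 (95% interval -0.50 to 0.18) on 43 to 100 reads a library. Plvap, the diaphragm protein of leaky vessels that is lost as the barrier matures, had 3.13 to 4.40 RPKM in null-labelled and 3.35 to 3.77 RPKM in wild-type libraries, and its log2 fold change of 0.082 (95% interval -0.10 to 0.27) was the highest among the tested genes of the panel. Rasip1, which couples Rap1 to the forming vessel lumen, gave -0.040 (95% interval -0.24 to 0.16).

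Of the pericyte genes, Pdgfrb passed and Rgs5 did not. Pdgfrb (ENSMUSG00000024620.11, chr18:61045150-61085061) had 2.14, 2.09, 2.65 and 2.25 RPKM in the null-labelled libraries, against 3.05, 2.49, 3.08 and 2.93 RPKM in the wild-type libraries. Null-labelled library 11 lay above wild-type library 2, so the groups overlapped. The means were 2.28 ± 0.253 RPKM in null-labelled and 2.89 ± 0.273 RPKM in wild-type libraries (SD, n = 4 each), with a log2 fold change of -0.24 ± 0.08 (SE, limma adjusted p = 0.0426). The call was lost without any 1 of libraries 5, 6, 12, 1, 7 or 8, with adjusted p of 0.0852 to 0.107. Rgs5, a regulator of G-protein signals in pericytes, had 3.87, 3.58, 6.12 and 5.06 RPKM in the null-labelled libraries, against 5.40, 3.97, 4.79 and 5.31 RPKM in the wild-type libraries, with library 11 highest and library 6 lowest (log2 fold change -0.069, 95% interval -0.38 to 0.24). Cspg4 (NG2), a proteoglycan of pericytes and glial precursors, was under the filter at 0.469 to 0.655 RPKM in null-labelled and 0.608 to 0.702 RPKM in wild-type libraries.

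The library numbers fall into a lower set (1, 2, 5 and 6) and a higher set (7, 8, 11 and 12), each with both genotypes. Within the lower set 3 vascular genes were called lower, where 10.4% of all tested genes were, and within the higher set 0, where 9.26% were. The 3 genes were Cd34 (limma adjusted p = 0.0273), Cdh5 (0.0462) and Ramp2 (0.0228), which did not pass over all 8 libraries. Within the lower set Kdr, Tek, Tie1, Egfl7 and Pdgfrb did not pass, with limma adjusted p of 0.0501 (Egfl7) to 0.138 (Pdgfrb), at 2 libraries a genotype. Cdh5 had a log2 fold change of -0.40 in the lower set and -0.20 in the higher. Tie1 gave -0.49 in the lower set and -0.23 in the higher, and Kdr -0.27 in the lower and -0.16 in the higher. Tek gave -0.35 in the lower set and -0.23 in the higher, and Egfl7 -0.33 in the lower and -0.28 in the higher. Cd34 gave -0.39 in the lower set and -0.062 in the higher, and Pdgfrb -0.27 in the lower and -0.22 in the higher. All 7 called genes were negative in both sets. The sets split the same libraries that gave the calls, so these signs are not separate support. For all of the called genes but Pdgfrb the groups did not overlap, which fixed a negative sign in each set. Ramp2 had opposite signs, -0.66 in the lower set and 0.092 in the higher, as did Rgs5, with -0.26 in the lower and 0.12 in the higher. The median over the tested vascular genes was -0.26 in the lower set, where that of all tested genes was -0.065, and -0.072 in the higher set, where that of all tested genes was 0.037. The difference between the sets was not tested.

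The panel was set beside the mean of 13 tested endothelial genes outside it (among them Cd93, Nos3, Fli1 and Fgd5). Of the 13, Pcdh12 passed the filter on low values through its wild-type mean alone (1.12 RPKM, against 0.891 RPKM in null-labelled libraries). Esm1 passed it through its null-labelled mean alone (1.49 RPKM, against 0.842 RPKM in wild-type libraries). Both had to differ, so this mean and the differences and p-values set against it are given as a description. The mean log2(RPKM + 1) of those 13 was 1.63, 1.71, 1.72 and 1.72 in the null-labelled libraries, against 1.88, 1.78, 1.85 and 1.85 in the wild-type libraries. The averages were 1.70 ± 0.0429 in null-labelled and 1.84 ± 0.0434 in wild-type libraries (SD, n = 4 each), and library 5 was the lowest here too. Relative to this level, differences of the 27 tested vascular genes ran from -0.22 for Tie1 to 0.22 for Plvap. The difference for Cdh5 was -0.16 and that for Slc2a1 0.15, each with an exact two-sided permutation p of 0.0286 over the 8 libraries, the smallest p that 4 against 4 allows. With 27 genes compared, 16 would have to reach that p for an adjusted p under 0.05, so no difference passes a correction. Tie1, Egfl7 (-0.16), Kdr (-0.077) and Plvap each had an exact permutation p of 0.0571. These differences depended on Fgd5. The difference of the 13-gene means was -0.14, whereas without Fgd5, an alternative added after the data were seen, the mean of the other 12 was 1.73 in null-labelled and 1.79 in wild-type libraries, a difference of -0.058. Those 12 still held Tspan18 (log2 fold change 0.52) and Esm1 (0.43), both higher in the null-labelled libraries. Fgd5 had the lowest log2 fold change of the 13, and their median was -0.15. Leaving out Fgd5 alone thus moved the mean toward the higher genes, and the mean of the 12 is not a more typical level. Against those 12 Slc2a1 gave 0.071 (exact permutation p = 0.143) and Plvap 0.14 (exact permutation p = 0.114). Tie1 then gave -0.31, Cdh5 -0.24, Egfl7 -0.24, Tek -0.23 and Kdr -0.16, each with an exact permutation p of 0.0286 and an adjusted p of 0.154.

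Of the 13 endothelial genes outside the panel, 2 passed lower and 2 higher, with a median log2 fold change of -0.15. Over all tested genes 14.6% passed lower and 13.8% higher, and these shares also stand beside the counts of the lists below. At 15.4% lower, this list was near the share of all tested genes. Fgd5, a guanine nucleotide exchange factor of endothelium, had 1.35, 1.37, 1.24 and 1.65 RPKM in the null-labelled libraries, against 4.96, 3.99, 4.58 and 3.71 RPKM in the wild-type libraries (log2 fold change -1.14 ± 0.09, SE, limma adjusted p = 2.08e-05). The groups did not overlap, library 11 was the lowest, and the log2 fold change was farther from 0 than that of any tested gene of the panel. Which cells of the bulk tissue made the RNA of Fgd5 or of Tspan18 was not tested. Aplnr, the apelin receptor of sprouting endothelium, was lower as well (-0.36, limma adjusted p = 0.00808). Esm1, a gene of endothelial tip cells, was higher at 1.90, 1.30, 1.46 and 1.31 RPKM in the null-labelled libraries, against 0.823, 0.918, 0.918 and 0.709 RPKM in the wild-type libraries (0.43, limma adjusted p = 0.00739), and Tspan18 was higher as well (0.52, limma adjusted p = 1.58e-04). Esm1 passed the filter on low values through its null-labelled mean alone, so it had to differ and its call is given as a description. The call of Aplnr was lost without libraries 5 and 6 (limma adjusted p = 0.0596).

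Among 17 tested further genes of vessels and barrier, 5 were lower (Lef1, Tfrc, Slc16a1, Podxl and Tjp1) and 1 higher (Palmd), with a median of -0.10. Tfrc, the transferrin receptor used for iron uptake by barrier endothelium and by dividing cells, had 19.6, 20.1, 19.1 and 20.1 RPKM in the null-labelled libraries, against 27.4, 27.5, 25.6 and 23.2 RPKM in the wild-type libraries (-0.38, limma adjusted p = 0.00110). Slc16a1, a lactate transporter, gave -0.39 and Podxl, the surface mucin of vessel lumens that neural cells also express, -0.33. Palmd, which encodes palmdelphin, was higher, at 1.03. The call of Tjp1 was lost without any 1 of libraries 5, 12, 2 or 7. Of the 10 tested mural genes outside the panel, 1 was lower (Notch3, -0.24, limma adjusted p = 0.0368) and 1 higher (Myl9, 0.30, limma adjusted p = 0.0497), with a median of -0.13. Both calls were lost without any 1 of 6 libraries: 5, 11, 12, 2, 7 or 8 for Notch3, and 6, 11, 12, 2, 7 or 8 for Myl9. Notch3 is also a gene of neural progenitors, and its RPKM was 15.5 to 18.0 in null-labelled and 17.2 to 22.1 in wild-type libraries.

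Of 12 tested genes of the vascular basement membrane 2 were lower and 2 higher, with a median of -0.0088. Fn1 (fibronectin) had 14.7, 17.6, 14.0 and 14.1 RPKM in the null-labelled libraries, against 21.9, 23.9, 22.2 and 22.4 RPKM in the wild-type libraries (-0.55, limma adjusted p = 3.90e-04), and the laminin gene Lamb1 was higher (0.41, limma adjusted p = 0.0160). Nid1 was lower (-0.18) and Sparc higher (0.27), and each call was lost without any 1 of 6 libraries: 5, 6, 12, 1, 2 or 7 for Nid1, and 6, 11, 12, 2, 7 or 8 for Sparc. The main collagens of the membrane did not pass: Col4a1 had 19.9 to 23.3 RPKM in null-labelled and 21.5 to 23.1 RPKM in wild-type libraries, and Col4a2 13.8 to 15.7 RPKM in null-labelled and 14.4 to 15.4 RPKM in wild-type libraries.

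**Figure D4:**
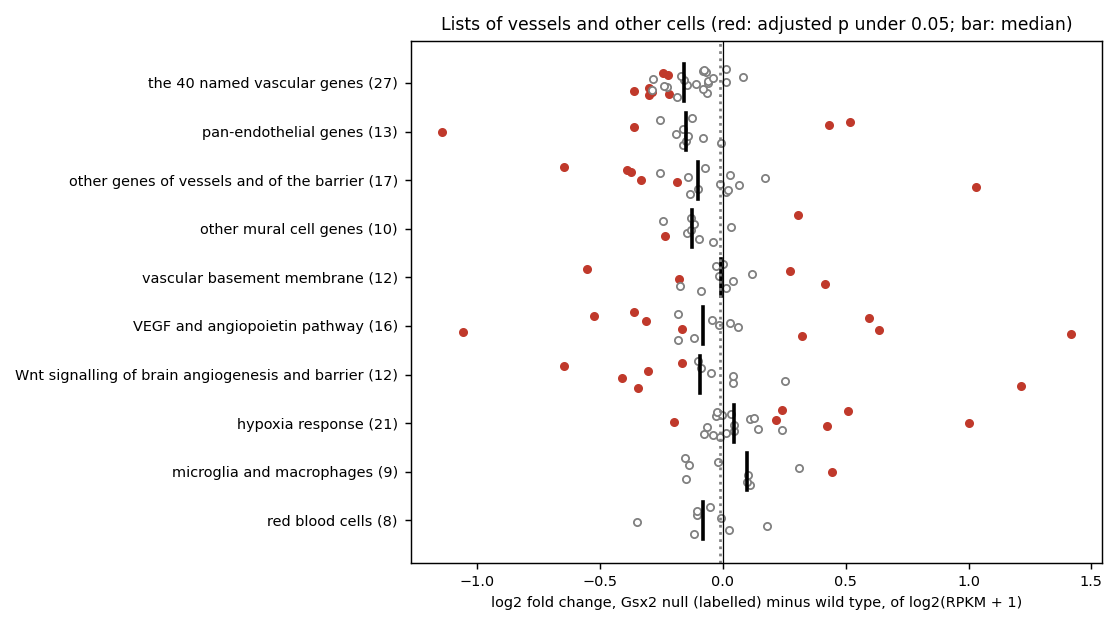
Log2 fold change, null-labelled minus wild type, of each tested gene (points) in 10 lists, with the number tested in brackets, the median as a bar, calls at an adjusted p under 0.05 in red and the median of all tested genes as a dotted line. The vascular panel lies between -0.36 and 0.082, whereas the lists of signals and barrier genes include larger changes in both directions.

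Among the signals that act on vessels some genes had larger log2 fold changes than any tested gene of the panel, in both directions. The scale understates the change of genes of low RPKM, and the lists were not matched for level. In the VEGF, angiopoietin and Notch list 5 of 16 tested genes were lower (Angpt1, Hey1, Aplnr, Notch1 and Sema3a) and 4 higher (Jag1, Nrp1, Nrp2 and Plxnd1), with a median of -0.081. Angpt1, the activating ligand of Tek, had 1.75, 1.73, 2.04 and 2.41 RPKM in the null-labelled libraries, against 5.68, 5.07, 5.44 and 4.55 RPKM in the wild-type libraries. The groups did not overlap, with libraries 5 and 6 lowest. Means of Angpt1 were 1.98 ± 0.319 RPKM in null-labelled and 5.19 ± 0.491 RPKM in wild-type libraries (SD, n = 4 each), and the log2 fold change was -1.06 ± 0.09 (SE, limma adjusted p = 3.57e-05). The receptor parts Nrp1 (0.32), Nrp2 (1.42) and Plxnd1 (0.64), which semaphorins use as well as VEGF and which growing neurons also express, were higher, as was the Notch ligand Jag1 (0.59), while the Notch target Hey1 (-0.53) and the receptor Notch1 (-0.31), both also genes of neural progenitors, were lower. The call of Sema3a (-0.17) was lost without any 1 of libraries 5, 11, 12, 1, 2 or 8.

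In the Wnt list of brain vessels and barrier 5 of 12 tested genes were lower (Wnt7a, Fzd4, Tspan12, Lef1 and Axin2) and 1 higher (Wnt7b), with a median of -0.095. Wnt7a, a ligand made by neural progenitors, had 14.2, 15.3, 17.4 and 17.2 RPKM in the null-labelled libraries, against 19.1, 20.4, 21.6 and 21.3 RPKM in the wild-type libraries (-0.35 ± 0.07, SE, limma adjusted p = 0.00467). Wnt7b, the paralogous ligand, had 19.0, 19.6, 20.3 and 21.5 RPKM in the null-labelled libraries, against 9.41, 10.04, 4.19 and 10.4 RPKM in the wild-type libraries (1.21 ± 0.22, SE, limma adjusted p = 0.00246). The ligands thus moved in opposite directions, and for neither did the groups overlap. Fzd4, the receptor of Norrin and Wnt on barrier endothelium, had 0.690, 0.889, 0.741 and 0.582 RPKM in the null-labelled libraries, against 1.38, 1.45, 1.12 and 1.21 RPKM in the wild-type libraries (-0.41 ± 0.09, SE, limma adjusted p = 0.00648). Fzd4 passed the filter through its wild-type mean alone, so its call, here and without libraries 5 and 6, is given as a description. Without libraries 5 and 6 Angpt1 gave -0.94 (limma adjusted p = 0.000919), Wnt7a -0.24 (0.0258), Wnt7b 1.27 (0.0204) and Fzd4 -0.46 (0.0199). Tspan12, the co-receptor of Norrin signalling, averaged 9.16 ± 0.674 RPKM in null-labelled and 11.5 ± 0.546 RPKM in wild-type libraries (SD, n = 4 each), without overlap (-0.30, limma adjusted p = 0.00425).

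The nuclear effector Lef1 (-0.65, limma adjusted p = 3.90e-04) and the feedback gene Axin2 (-0.17, limma adjusted p = 0.0392), read out in neural as well as endothelial cells, were lower. The call of Axin2 was lost without any 1 of 7 libraries (all but library 2). Sox17, a member of the panel, stands in this list too. Ctnnb1, Lrp5, Lrp6, Adgra2, Reck and Apcdd1 were tested and did not pass.

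**Figure D5:**
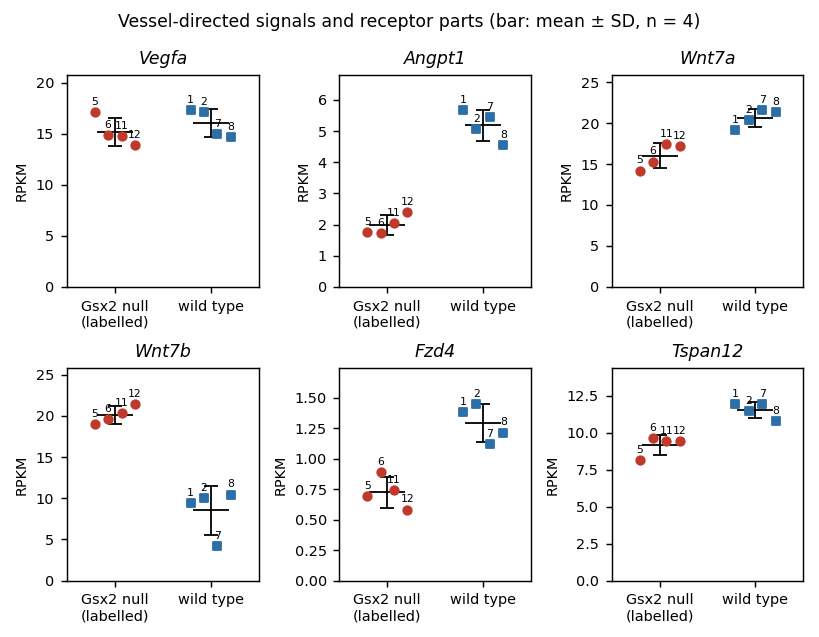
RPKM by library of 4 ligands (Vegfa, Angpt1, Wnt7a and Wnt7b) and 2 receptor genes (Fzd4 and Tspan12), with null-labelled libraries (red circles) left of wild-type libraries (blue squares), the library number above each point, and bars for the mean ± SD (n = 4). Vegfa overlaps between the groups, Wnt7b is higher in every null-labelled library, and the other 4 genes are lower in every null-labelled library.

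Of 14 tested genes of TGF-beta, ALK1 and sphingosine signalling 2 were lower (Id3, -0.82, and Id1, -0.42) and 3 higher (Tgfb2, 0.53, Lrp1, 0.30, and Smad1, 0.23). Tgfb2 passed the filter through its null-labelled mean alone (1.07 RPKM, against 0.426 RPKM in wild-type libraries). Id3 and Id1 are targets of BMP signals in endothelial and neural cells, and the call of Id1 was lost without any 1 of libraries 5, 6, 1, 2 or 8. In the PDGF family Pdgfra, the receptor of fibroblasts and glial precursors, was higher (4.52) and Pdgfrb lower, with the other 3 tested genes not past. Whether Pdgfra lies near the altered Gsx2 gene was not examined, and an effect of the alleles on nearby genes was not tested. Of 21 tested hypoxia genes, Vegfa and Slc2a1 of the panel among them, 5 were higher (Ndrg1, 1.00, Egln3, 0.43, Pfkfb3, 0.22, Slc16a3 and Ero1l) and 1 lower (Hk2), with a median of 0.043. Of 9 tested genes of amino acid transport and stress, Slc7a5 among them, 2 were lower (Slc38a2, -0.16, and Atf4, -0.19). The call of Slc38a2 was lost without library 7, that of Atf4 without any 1 of libraries 5, 6, 1, 7 or 8, and that of Ero1l without library 5 or 7.

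Across these lists of vessel, signal, hypoxia and amino acid genes, 43 genes outside the panel were called with all 8 libraries, and 29 of them were called without libraries 5 and 6 as well. Over all tested genes 14.6% were lower and 13.8% higher with all 8 libraries. Without libraries 5 and 6, of 11376 tested genes 1033 were lower and 1467 higher. The share called lower was 10% to 16.7% in the mural, endothelial, TGF-beta and basement membrane lists. It was 4.76% in the hypoxia list and 20% to 41.7% in the others. The other 14 were Aplnr, Podxl, Notch3, Lamb1, Nid1, Nrp1, Nrp2, Sema3a, Id1, Lrp1, Axin2, Hk2, Ero1l and Atf4. Among these Podxl had a limma adjusted p of 0.0526, Nrp1 of 0.0713, Nrp2 of 0.0715, Lrp1 of 0.0745, Lamb1 of 0.114 and Axin2 of 0.164.

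Markers of other cells of the tissue were summed beside the panel, whose own sum was 138 to 169 RPKM in null-labelled and 163 to 180 RPKM in wild-type libraries. Microglia and macrophage genes summed to 24.8 to 30.4 RPKM in null-labelled and 23.5 to 29.1 RPKM in wild-type libraries, with 1 of 9 tested genes higher (C1qc, 0.44) and 0 lower. Red blood cell genes summed to 1255 to 1813 RPKM in null-labelled and 1309 to 2295 RPKM in wild-type libraries, and 0 of 8 passed in either direction, with Hbb-y and Hba-x the most abundant. Fibroblast genes other than Pdgfra summed to 4.12 to 11.7 RPKM in null-labelled and 5.89 to 6.73 RPKM in wild-type libraries, with the high value in null-labelled library 6 (Col1a1 at 3.11 and Col3a1 at 3.19 RPKM there). Of 5 tested fibroblast genes Pdgfra was higher and Prrx1 lower (-1.24), each past the filter through its higher group alone, and Lum was listed at 0 in wild-type libraries 1, 2 and 7. Platelet and progenitor genes had Kit higher (0.95) and Myb lower (-1.03), the only 2 tested. For Kit, as for Pdgfra, nearness to the altered Gsx2 gene was not examined.

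Of the neural lists, 9 of 10 LGE genes were lower (Dlx1, -3.38) and 1 higher, Gsx2 itself. Of 8 radial glia genes 2 were lower (Sox2, -0.74, and Hes5, -0.58) and 4 higher, and of 6 neuron genes 4 were higher (Rbfox3, 1.18) and 0 lower. Summed radial glia genes were 1407 to 1766 RPKM in null-labelled and 1352 to 1480 RPKM in wild-type libraries, and summed neuron genes 981 to 1151 RPKM in null-labelled and 872 to 990 RPKM in wild-type libraries. Both neural sums were higher on average in the null-labelled libraries, with ranges that overlapped, and their part in the lower RPKM of vascular genes was not tested.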

How the data were processed

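RNA of E12.5 mouse LGE was sequenced in 4 libraries labelled null for Gsx2 and 4 labelled wild type. Per the labels' protocols, polyadenylated RNA was made into stranded libraries (dUTP, 9 PCR cycles) and read as single-end reads of 51 bp. STAR, featureCounts, edgeR and the build mm10 are named in the submitters' processing notes, without versions, annotation or a strand setting for the counting. Per the file headers, the authors deposited 1 table of 12843 genes with the RPKM of each library, a log2 fold change, an average log2 CPM, a p-value and an FDR. The sign of the deposited log2 fold change was checked on 1782 genes with an absolute value above 0.5, and 100% were positive where the null-labelled mean was higher.

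Column names gave the genotype (Germline was read as null, after the series title) and a library number that is in no label, and 0 columns were left out. Genotype was tested on log2(RPKM + 1) by limma 3.58.1 (R 4.3.3), two-sided, with an intensity trend. Benjamini-Hochberg adjustment ran over 11395 genes with a mean of at least 1 RPKM in either genotype, and 1448 were not tested. Of the 36 listed vascular genes 9 were not tested: Icam2, Ptprb, Flt4, Erg, Sox7, Sox17, Tal1, Angpt2 and Cspg4. The fit was checked on simulated data. Gene positions are from GENCODE for GRCm38 (mm10) and promoters from RefSeq.

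From the steps of the RPKM values, whole reads were recovered for 100% of the listed genes (tolerance 1e-06 of a read, wider in proportion for genes with many reads), which set the depth and entered 1 alternative fit. In 40 genes all recovered reads shared a divisor, which was set from the deposited average log2 CPM. Depth limits the precision of genes with few reads, and a count covers counting error only.

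The panel and all gene lists were chosen with earlier results of these data known. Panel genes past the threshold or without overlap between genotypes are given in every library, others by range or with values for the most abundant of a role. Of other lists, up to 3 genes past the threshold with the smallest adjusted p are named, or the 2 most abundant where none passed. Chosen after their values were seen were Aplnr, Atf4, Axin2, C1qc in its list's count, Col1a1, Col3a1, Col4a1, Col4a2, Ero1l, Fzd4, Hk2, Id1, Lum, Nid1, Notch1, Nrp1, Nrp2, Plxnd1, Podxl, Sema3a, Slc16a1, Slc16a3, Smad1, Tjp1 and Wnt7a, the names of tested genes that did not pass in the Wnt list, and the panel genes given in every library although they did not pass. Alternatives were 2 other pseudocounts, no filter, 3 scalings, 2 other variance settings, the set of library numbers as a term, voom on recovered reads, each library left out, each set of library numbers alone, and, added after the data were seen, libraries 5 and 6 both left out and Fgd5 left out of the endothelial mean.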

Additional observations from a re-analysis of the deposited data

Results flagged for a closer look

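In 5 of 72 groups of 4 libraries (36 vascular genes in each genotype) 1 library lay far from the other 3, past Dixon's 95% criterion for a gap at the end of a group, which chance alone would meet in about 1 in 20 groups. Kdr had 4.86 RPKM in null-labelled library 5, under the 5.48 to 5.61 RPKM of the other null-labelled libraries. Sox17 had 0.233 RPKM in the same library, against 0.322 to 0.333 RPKM in the others, and Slc7a5 had 15.1 RPKM there, against 20.6 to 21.6 RPKM. Tek had 1.26 RPKM in null-labelled library 11, above the 0.937 to 0.967 RPKM of the other null-labelled libraries. Rasip1 had 2.47 RPKM in wild-type library 8, above the 1.96 to 2.04 RPKM of the other wild-type libraries. Of the 5 values, 3 were low values of library 5. Without library 5 the calls of Kdr and Tek were kept, as they were with every other single library left out, with adjusted p (limma) of 0.0226 to 0.0428 for Kdr and 0.0101 to 0.0486 for Tek.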

How the results depend on the processing

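The count of vascular genes called lower was 7, where 14.6% of all tested genes were lower. It ranged from 7 to 9 under the 10 alternative settings that keep all 8 libraries, where the share of all tested genes ran from 13.1% to 17.2%. With 1 library left out it ranged from 5 to 8, where that share ran from 10.8% to 13.9%. The count called higher was 0 in all settings, where 13.8% of all tested genes were higher in the main fit. The count called lower was 3 (Cdh5, Cd34 and Ramp2) within libraries 1, 2, 5 and 6, where 10.4% of all tested genes were lower. It was 0 within libraries 7, 8, 11 and 12, where 9.26% were, and each genotype has 2 libraries in these sets. For null-labelled libraries 11 and 12 against wild type, chosen after seeing the data, it was 3, where 9.08% were. Cdh5, Kdr, Tek, Tie1 and Egfl7 passed in all 10 settings and with any library left out, with adjusted p (limma) of 0.0111 to 0.0332 for Cdh5, 0.0120 to 0.0349 for Tie1 and 0.00407 to 0.0167 for Egfl7. The share of all tested genes that passed throughout was not counted. The call of Cd34 was also lost with no filter on low values and with no intensity trend. With no filter all 36 listed genes were tested and 7 were lower, among them a gene that the main fit did not test. Esam passed under the 3 scalings and with the set of library numbers as a term, and Eng under 6 settings (a pseudocount of 5, quantile normalization, no trend, the robust fit, the set term and voom).

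Signs turned for 9 genes not called over all 8 libraries, of which Ramp2 (-0.28) passed within libraries 1, 2, 5 and 6. Pdgfb was -0.039 with quantile normalization, -0.052 within libraries 7, 8, 11 and 12, and -0.020 to 0.081 with 1 library left out. Within libraries 7, 8, 11 and 12 Ramp2 was 0.092, Rasip1 0.044 and Rgs5 0.12, and within libraries 1, 2, 5 and 6 Slc2a1 was -0.023 and Plvap -0.057. With 1 library left out Rasip1 ran from -0.090 to 0.012, Rgs5 from -0.19 to 0.025, Slc2a1 from -0.025 to 0.057 and Slc7a5 from -0.16 to 0.034. With null-labelled libraries 11 and 12 against wild type Sox18 was 0.074, Mfsd2a 0.013, Ramp2 0.045, Rasip1 0.085, Rgs5 0.17 and Slc7a5 0.055. The cause was not tested. No paired analysis was possible because the columns carry library numbers that are not the replicate numbers of the titles. The filter on low values was on RPKM and not on reads. The 9 untested genes had as few as 18 reads in a library (Icam2), but Ptprb among them had 170 to 259. Some tested genes had fewer reads than that, such as Slco1c1 with 43 to 100.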
